A study of Mus musculus with 55 samples.

Results

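The genomic regions described here are the islands of Lamin A/C signal in wild type (WT) mouse liver nuclei that also carried trimethylated lysine 20 of histone H4 (H4K20me3). They were taken from 1 island list for each antibody: a WT Lamin A/C island was included when WT H4K20me3 islands covered at least 50% of its length. This selected 697 of 1094 WT Lamin A/C islands. The lists came from CUT&Tag, in which an antibody directs a transposase to the chromatin it recognises. The chromatin assays compared livers of untreated WT mice with Setd8-LKO livers taken 24 h after an injection of TCPOBOP at 3 mg/kg, an agonist of the nuclear receptor CAR that makes hepatocytes proliferate. Setd8-LKO mice carry floxed Setd8 alleles that an albumin-driven Cre deletes in hepatocytes, so other liver cells keep the gene. All mice were 45 to 50 days old. The labels call the WT controls untreated, whereas the methods name a vehicle, so whether they were injected is not settled. Because only the Setd8-LKO mice of the chromatin assays received TCPOBOP, genotype and treatment cannot be told apart there, and the Setd8-LKO group given TCPOBOP is called Setd8-LKO below. Another group, WT mice given TCPOBOP, was assayed by RNA-seq only. In RNA, Setd8-LKO was likewise compared with untreated WT, so genotype and treatment both differ in that comparison. Setd8-LKO was not compared directly with WT given TCPOBOP.

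Lamina-associated domains are long stretches of chromatin that touch the lamin meshwork under the nuclear envelope. They are mostly gene-poor and rich in genes that the tissue does not use. H4K20me3 is made by the Suv4-20h enzymes from H4K20 that Setd8 has first monomethylated, and it marks compact heterochromatin and repeats. CTCF binds a defined DNA motif and, with the cohesin subunit SMC3, sets the borders of chromatin loops, whereas H3K27ac and accessible DNA (ATAC-seq) mark active promoters and enhancers.

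Libraries numbered 4 WT and 4 Setd8-LKO for Lamin A/C and 2 and 2 for H4K20me3. ATAC-seq had 3 and 5, H3K27ac 3 and 3, SMC3 3 and 2, and CTCF 4 and 2. Each assay and condition gave a single list, so the spread between mice is unknown for every chromatin value below, and these have no test. The 95% intervals given (exact Clopper-Pearson for shares, exact Poisson for densities) cover counting error only. The labels of the WT Lamin A/C libraries repeat replicate numbers, so the number of WT mice behind that list is not known. RNA-seq covered 5 untreated WT, 5 TCPOBOP-treated WT and 4 Setd8-LKO livers. In WT, 7 of 8 hepatocyte markers had H3K27ac within 1 kb of their start (not Hnf4a), as did 2 of 5 cholangiocyte, 2 of 6 stellate cell and 1 of 5 endothelial cell markers, and 0 of 6 Kupffer cell, 0 of 5 T and B cell and 0 of 3 neutrophil markers. Kmt5a, the gene that encodes Setd8, had 1313 to 1465 normalised reads in the libraries labelled Setd8-LKO and 563 to 761 in untreated WT, with a log2 fold change of 1.08 (edgeR adjusted p = 0.000151). Higher reads are not what the label alone would give. Whether the counted reads lie outside the deleted exon, or come from liver cells that keep the gene, was not tested.

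The sequences in these islands that the CTCF results below turn on are the summits of CTCF peaks. Shown are 100 bases of GRCm38/mm10 around the summits of the 3 WT CTCF peaks with the highest fold enrichment among those that held the CTCF motif CCNNNAGNNGGC, searched on both strands. The motif was read from the 5837 WT CTCF summits themselves, by keeping the bases that carried at least 1 bit of information, so the share of WT peaks that hold it is a description. Capitals mark the motif. The ranking by enrichment did not cover every chromosome, so it holds among the peaks considered.
WT peak beside Tcaf2, chr6:42645435-42645534, minus strand: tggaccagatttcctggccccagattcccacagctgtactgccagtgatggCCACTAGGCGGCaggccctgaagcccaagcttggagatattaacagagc
WT peak nearest to Spata6, chr4:111687744-111687843, plus strand: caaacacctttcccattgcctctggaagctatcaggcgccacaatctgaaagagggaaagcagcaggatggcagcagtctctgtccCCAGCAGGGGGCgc
WT peak nearest to Xkr5, chr8:18954120-18954219, plus strand: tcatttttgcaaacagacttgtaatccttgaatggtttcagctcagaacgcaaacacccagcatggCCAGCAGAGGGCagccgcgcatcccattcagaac

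The peak beside Tcaf2, which encodes a regulator of the TRPM8 channel, lay 0.23 kb from its start and was enriched 21.9-fold. The second lay 32.2 kb from the start of Spata6, a sperm flagellum gene, at 21.4-fold, and the third 3.19 kb from the start of Xkr5 at 20.5-fold. No Setd8-LKO peak overlapped the sites near Tcaf2 and Spata6, and the site near Xkr5 was listed in both conditions. Next come the 3 CTCF peaks with the highest enrichment among those listed only in Setd8-LKO, ranked over the same chromosomes. This set was chosen after the values had been seen, to set beside the WT sites.
Setd8-LKO peak, intergenic, chr1:7398317-7398416, plus strand: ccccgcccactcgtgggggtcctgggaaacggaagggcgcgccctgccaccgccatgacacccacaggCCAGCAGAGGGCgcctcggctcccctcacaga
Setd8-LKO peak, intergenic, chr13:71458549-71458648, plus strand: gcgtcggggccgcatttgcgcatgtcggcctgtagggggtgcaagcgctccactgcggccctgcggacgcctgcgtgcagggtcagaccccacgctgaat
Setd8-LKO peak inside Fat4, chr3:38888267-38888366, plus strand: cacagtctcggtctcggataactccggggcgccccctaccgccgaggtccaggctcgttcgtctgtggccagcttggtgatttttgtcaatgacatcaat

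The first of these was enriched 76.2-fold, held the motif and lay 309 kb from the nearest protein-coding start, that of Pcmtd1. The second was enriched 62.0-fold, 505 kb from Irx1, a homeobox gene, and the third 57.3-fold, 1.38 kb downstream of the start of Fat4, an atypical cadherin. These last windows did not hold the motif. All 3 lay between 198 and 459 kb from the border of their island.

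The 697 islands covered 682.4 Mb, which was 26.7% of the sequenced genome and most of the 849.78 Mb in WT Lamin A/C islands. Their median length was 660 kb (60 to 7360), against 300 kb (40 to 3200) in the 397 other WT Lamin A/C islands. WT H4K20me3 covered a median of 88.9% of an island, and 186 islands were covered throughout. The SICER2 score per kb, a measure of how far reads exceed the background, had a median of 1.26 for WT Lamin A/C in these islands and 0.487 in the others. Length and score come from the list that chose the islands and are given as description.

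The limit of 50% cut through a continuous range. There were 30 islands between 50% and 54.8%, 9 of them at exactly 50%, and 19 between 45.5% and 48.5%. Just inside lay the island around Btbd3 (chr2:137380001-138900000), the island with Tcaf1, Tcaf2 and Tcaf3 (chr6:42520001-43400000) and the island around Tdrd3 (chr14:87400001-87800000). Just outside lay those of Ptprc, which encodes the leukocyte antigen CD45 (chr1:137560001-138220000, 48.5%), Myh15 (chr16:48860001-49440000, 48.3%) and Adam23 (chr1:63300001-63760000, 47.8%).

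The islands were spread unevenly. They made up 37.5% of chromosome 3, 36.4% of chromosome 1 and 34.2% of chromosome 14, but 14.7% of chromosome 11 and 3.62% of chromosome X, and chromosome 19 had no WT Lamin A/C island in the list. The longest, chr1:108080001-115440000, spanned 7360 kb around the cadherins Cdh7 and Cdh19 and the epimerase gene Dsel. The next were chr14:93120001-99060000 with the protocadherin Pcdh9, Klhl1 and Dach1, and chr8:96000001-101300000 with Cdh8 as its only protein-coding start. These 3 islands had 97.8%, 97.3% and 100% of their length in Setd8-LKO Lamin A/C islands. The highest WT Lamin A/C score per kb, 7.76, belonged to chr4:121980001-122060000, an 80 kb island with no protein-coding start.

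The islands held few genes of liver metabolism and many receptor genes of the senses and the nervous system. They contained 2035 protein-coding starts, 9.35% of 21755, at 2.98 per Mb (2.85 to 3.11) against 3.40 (3.13 to 3.69) in the other WT Lamin A/C islands and 11.2 outside. Of the islands, 278 (39.9%) had no protein-coding start. Pseudogenes were denser than in the other islands, 4.64 against 2.96 per Mb, and long noncoding RNA genes were sparser, 1.55 against 2.53.

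Olfactory receptor genes, which are read in single olfactory neurons, accounted for 766 of those starts. This was 67.5% of the 1135 in the genome, against 9.35% of all protein-coding genes. They sat in 31 islands, and 739 of them were in islands that stayed at least 50% covered by Lamin A/C in Setd8-LKO, as 726 were for H4K20me3. Over all 2035 protein-coding starts of the islands, which include these 766, the counts were 1904 and 1767. The 3 islands with most protein-coding starts held 97 (chr7:102660001-104220000), 87 (chr2:86120001-87880000) and 83 (chr9:37680001-39840000). Vomeronasal receptors, which detect pheromones, had 158 of 329 genes in the islands, and bitter taste receptors (Tas2r) 22 of 35. Skint genes, which act in the selection of skin γδ T cells, had 10 of 11.

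Some families of synaptic and adhesion molecules had many members in the islands and others did not, where the share over all protein-coding genes was 9.35%. The contactins and their partners (Cntn, Cntnap) had 10 of 13 genes in the islands, GABA receptor subunits 10 of 19, glutamate receptors 9 of 27 and cadherins 9 of 23. Potassium and sodium channels had 11 of 108 (10.2%), Lrrtm and Lrrc genes 7 of 70 and the Dlgap scaffold genes 0 of 5. Defensins had 21 of 64 and serpins 17 of 61, 15 of these from the Serpinb group. In contrast, 0 of 100 cytochrome P450 genes, 0 of 22 major urinary protein genes, 1 of 22 UDP-glucuronosyltransferases (Ugt8a) and 1 of 21 sulfotransferases (Sult1c1) started in an island. Solute carriers had 11 of 371 and Zfp zinc finger genes 9 of 394. The family members lie in clusters and are not independent of each other.

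The base composition followed the same division. The islands had a GC content of 38.4%, against 40.0% in the other WT Lamin A/C islands and 43.3% outside. The observed over expected CpG ratio was 0.151, against 0.174 and 0.205. Repeats and low-complexity sequence, as soft-masked bases, made up 40.1% of the islands, 30.8% of the other islands and 32.4% of the rest. The rule used none of these properties.

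Most islands were still listed for Lamin A/C in Setd8-LKO. Setd8-LKO Lamin A/C islands covered at least 50% of the length of 603 of 697 (86.5%, 83.8 to 89.0), with 222 covered throughout and 75 not at all. The share was 63.2% (58.3 to 68.0) in the other WT Lamin A/C islands and 78.1% over all of them. By bases, 614.52 Mb (90.1%) of the 682.4 Mb remained in a Lamin A/C island. The H4K20me3 list of Setd8-LKO covered at least 50% of 510 islands (73.2%, 69.7 to 76.4), against 22 of 397 (5.54%, 3.51 to 8.27) of the others and 48.6% over all. The others had been chosen for low H4K20me3 in WT, so that contrast starts from the rule.

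Both marks together were kept in 462 islands with a median length of 900 kb. Another 141 islands, with a median of 520 kb, kept Lamin A/C alone, 48 (220 kb) kept H4K20me3 alone and 46 (270 kb) kept neither. Where an island base carried H4K20me3 in WT, 83.5% still did in Setd8-LKO (491.28 of 588.26 Mb). Where it did not, 8.54% gained it (8.04 of 94.14 Mb). The islands were chosen for H4K20me3 in WT, so far more bases could lose it than gain it, and no direction is read from these amounts.

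**Figure D1:**
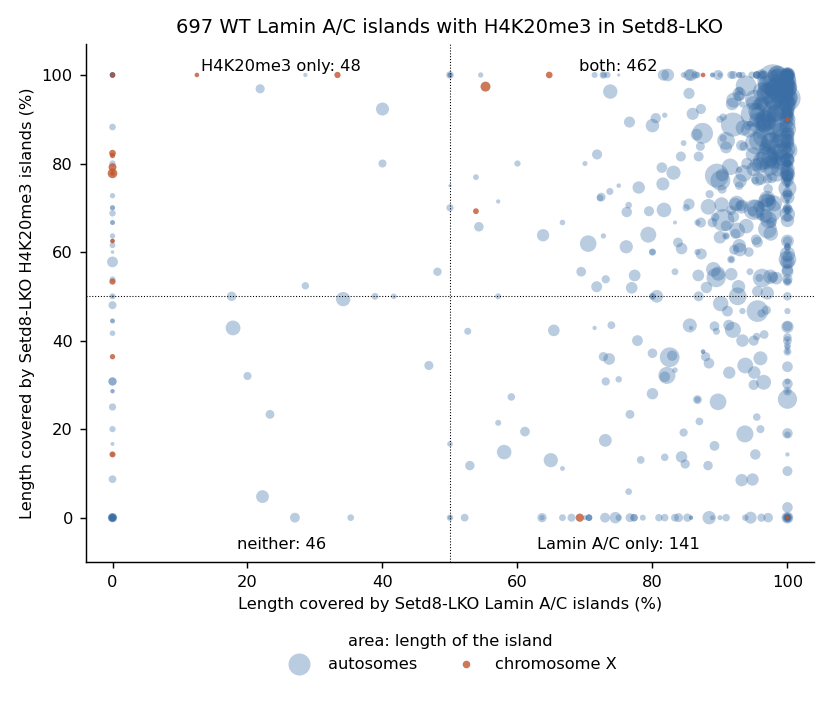
Each point is a WT Lamin A/C island with H4K20me3, with the share of its length in Setd8-LKO Lamin A/C islands on the x axis and in Setd8-LKO H4K20me3 islands on the y axis, both in percent. Point area follows island length, orange marks chromosome X and dotted lines mark 50%. The 462 islands that kept both marks crowd the upper right corner and include the longest, and most of those from chromosome X lie at the left edge.

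Long islands kept Lamin A/C more often than short ones. The share was 60% below 200 kb, 80% from 200 to 500 kb, 90.7% from 500 to 1000 kb and 98.4% (241 of 245) at 1000 kb or more. In the other WT Lamin A/C islands it was 48.8%, 58.4%, 78.6% and 100% (24 of 24) in the same classes, so islands with H4K20me3 had the higher share in the lower 3 classes, with intervals that overlapped below 200 kb and from 500 to 1000 kb. The 2 sets also differed in WT Lamin A/C score per kb (median 1.26 against 0.487), and its part in these shares was not tested. Of the 19 islands on chromosome X, 36.8% kept Lamin A/C and 78.9% kept H4K20me3, where the shares over all 697 islands were 86.5% and 73.2%. The X islands covered 5.92 Mb in all, and the study used male mice. The parts of island length and of X copy number were not tested.

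Among islands absent from the Setd8-LKO Lamin A/C list, the longest was chr8:112180001-113080000 around Cntnap4, a synaptic adhesion gene, of which 57.8% stayed in H4K20me3 islands. The island with Sphkap, Daw1 and the chemokine gene Ccl20 (chr1:83060001-83660000) had 0% of both. Its WT Lamin A/C score per kb was 0.387, below the lower quartile of 0.647. The longest island under 50%, chr12:5740001-7420000, had no protein-coding start and kept 17.9% for Lamin A/C and 42.9% for H4K20me3.

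Some islands lost H4K20me3 and retained Lamin A/C. The island of Irx1 (chr13:71000001-72380000) went from 71% to 0% H4K20me3 coverage and kept 88.4% for Lamin A/C. The island with the small proteoglycan genes Dcn, Epyc, Lum and Kera (chr10:97400001-98460000) went from 60.4% to 0% and stayed covered throughout by Lamin A/C. The island with Cacnb2, Slc39a12 and the mannose receptor gene Mrc1 (chr2:14200001-15000000) went from 70.0% to 0%, also with Lamin A/C throughout. These were chosen as the lowest in Setd8-LKO H4K20me3 coverage and stand for that end of the range alone.

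The interior of the islands was nearly free of active marks in WT. ATAC-seq peaks occurred at 0.482 per Mb (0.431 to 0.537) in the islands, 1.88 in the other WT Lamin A/C islands and 15.6 outside. H3K27ac peaks had densities of 0.365 (0.321 to 0.413), 1.34 and 16.1 per Mb. The corresponding CTCF values were 0.148 (0.121 to 0.180), 0.580 and 3.30, and those of SMC3 0.170 (0.140 to 0.204), 0.789 and 7.48. The intervals of the islands and the others do not overlap in any of the 4 assays.

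The densities fell as WT H4K20me3 coverage rose. H3K27ac peaks in WT went from 1.55 per Mb in WT Lamin A/C islands with no H4K20me3 to 0.706 in islands covered 50 to under 75%, 0.314 at 75 to under 100% and 0.134 at full coverage. CTCF peaks in WT went from 0.741 to 0.316, 0.128 and 0.0103 per Mb along the same classes. Protein-coding starts did not follow this order, with 3.28, 3.31, 2.69 and 3.90 per Mb. The classes differ in island length as well, with medians of 240, 560, 1040 and 300 kb, and its part in the densities was not tested.

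**Figure D2:**
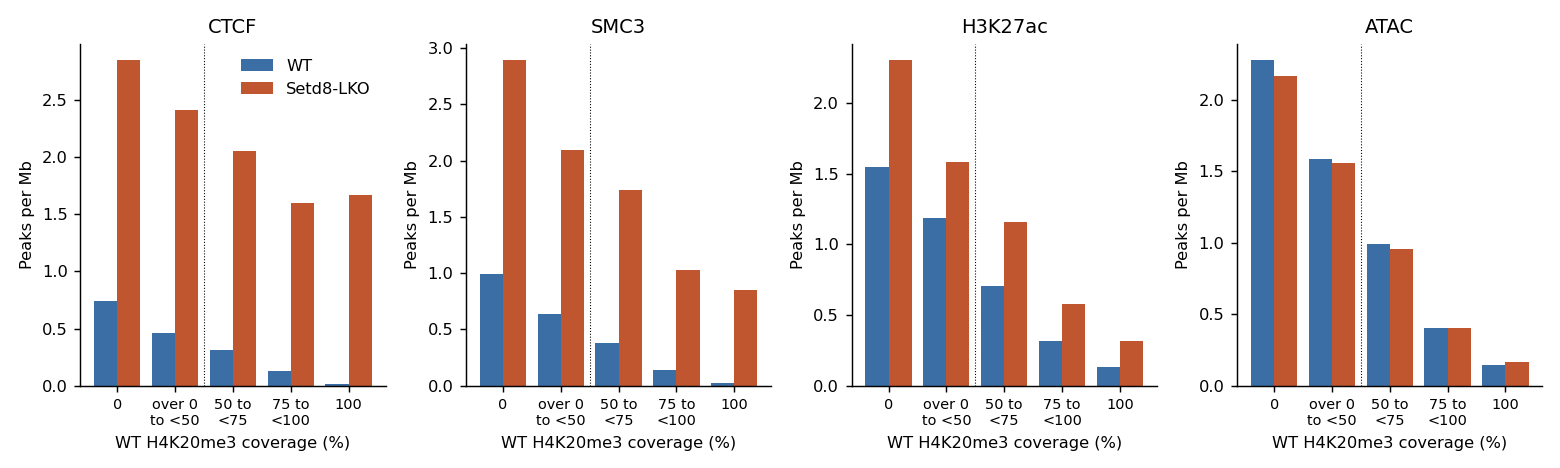
Peaks per Mb of CTCF, SMC3, H3K27ac and ATAC-seq (y axes) in WT Lamin A/C islands grouped by the percent of their length in WT H4K20me3 islands (x axes), in WT (blue) and Setd8-LKO (orange). The dotted line marks the 50% limit, and bars are single values per condition with no error bar. WT bars fall to the right in all 4 assays, and Setd8-LKO bars of CTCF stay at 1.60 per Mb or more.

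In Setd8-LKO the count of CTCF peaks inside the islands rose from 101 to 1161, and that of SMC3 from 116 to 779. The ratio of Setd8-LKO to WT was 11.5 for CTCF, against 4.48 in the other WT Lamin A/C islands and 3.42 outside, and 6.72, 3.09 and 1.60 for SMC3. H3K27ac peaks went from 249 to 445, a ratio of 1.79 against 1.41 and 0.981. ATAC-seq peaks stayed at 329 and 326, a ratio of 0.991. The whole CTCF list was itself longer in Setd8-LKO, with 20874 peaks from 2 libraries against 5837 from 4, and the highest fold enrichment in the islands was 112 against 21.9. The part of list depth in these ratios was not tested.

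The new CTCF peaks were spread over many islands. At least 1 CTCF peak was found in 83 islands in WT and 430 in Setd8-LKO, and for SMC3 in 99 and 355. H3K27ac peaks were in 161 and 259 islands and ATAC-seq peaks in 207 and 193. The island with Fam110b, Plag1 and Impad1 (chr4:3900001-6140000) had 2 CTCF peaks in WT and 13 in Setd8-LKO, and its H4K20me3 coverage went from 81.3% to 32.1%. The Jph1 island (chr1:16780001-20560000) had 1 and 9.

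Of the WT CTCF peaks in the islands, 46 of 101 (45.5%, 35.6 to 55.8) were overlapped by a Setd8-LKO peak, where the share over all WT CTCF peaks was 58.1%. For SMC3 it was 31 of 116 (26.7%, 18.9 to 35.7) against 42.5%. For H3K27ac it was 223 of 249 (89.6%, 85.1 to 93.1) against 77.7%, and for ATAC-seq 229 of 329 (69.6%, 64.3 to 74.5) against 73.0%. In the opposite direction, 1115 of 1161 Setd8-LKO CTCF peaks (96.0%, 94.8 to 97.1) had no WT peak under them, where the share over all was 83.9%. The same held for 749 of 779 SMC3 peaks (96.1%, background 76.0%), 234 of 445 H3K27ac peaks (52.6%, background 25.5%) and 97 of 326 ATAC-seq peaks (29.8%, background 14.4%). In the other WT Lamin A/C islands 40.2% of CTCF, 28.0% of SMC3, 92.9% of H3K27ac and 74.6% of ATAC-seq WT peaks were overlapped. Low overlap for CTCF and SMC3 and high overlap for H3K27ac were thus not particular to islands with H4K20me3. Without a WT peak were 91.0%, 91.2%, 36.6% and 22.0% of their Setd8-LKO peaks, in the same order.

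The CTCF motif, which was built from WT peaks, was frequent at those peaks and rare at gained peaks. Within 100 bases around the summit, 52 of 101 WT CTCF peaks in the islands (51.5%, 41.3 to 61.6) held CCNNNAGNNGGC, the same share as over all WT CTCF peaks (51.5%). Windows of equal length 2 kb away from all WT CTCF peaks held it in 2.07%. Of the CTCF peaks gained in the islands, 66 of 1115 (5.92%, 4.61 to 7.47) held it, against 8.08% of those gained in the other WT Lamin A/C islands and 13.3% of those gained outside. Windows 2 kb from the peaks gained in the islands held it in 0.359%. Setd8-LKO peaks that were also in WT held it in 21 of 46 cases (45.7%, 30.9 to 61.0). A match is a description of the sequence, and windows without one can hold other forms of the motif.

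**Figure D3:**
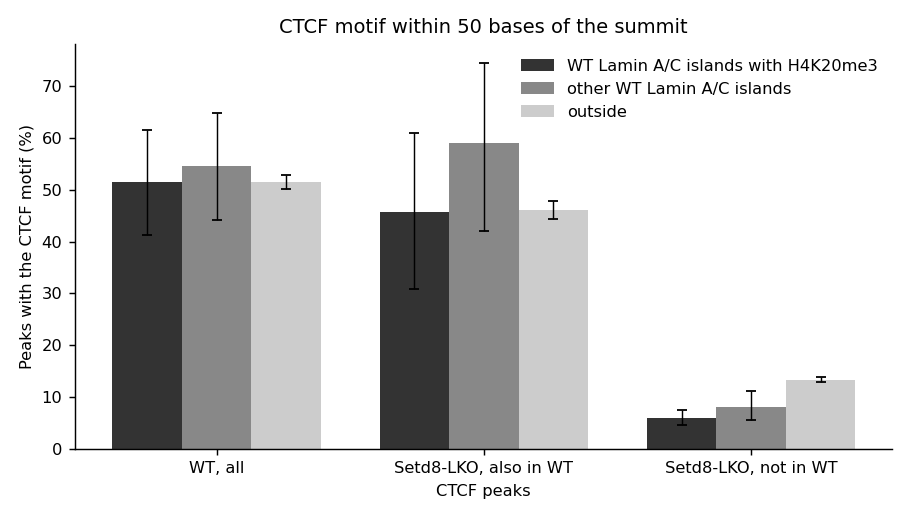
Percent of CTCF peaks with the motif within 50 bases of the summit (y axis) for peaks inside the WT Lamin A/C islands with H4K20me3, other WT Lamin A/C islands and the rest of the genome, for all WT peaks, Setd8-LKO peaks also in WT and Setd8-LKO peaks not in WT (x axis). Error bars are exact 95% intervals that cover counting error only. WT peaks stand near 51.5% and peaks gained in Setd8-LKO at 5.92% in the islands.

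Gained CTCF peaks differed from WT CTCF peaks of the same islands in further ways, some of them shared by Setd8-LKO peaks also in WT. Their 100-base windows had a median of 7 CpG and 64% GC, against 3 CpG and 55%. An ATAC-seq peak of the same condition overlapped 39 of 1115 (3.50%), against 21 of 101 (20.8%) for WT peaks. H3K27ac overlapped 23.7% against 10.9%, and SMC3 43.4% against 39.6%. In Setd8-LKO 61.3% of gained CTCF peaks lay in H4K20me3 islands and 83.7% in Lamin A/C islands. Both shares were below those of the bases, of which these lists covered 73.2% and 90.1%. Of the 101 WT CTCF sites, 15 (14.9%) lay in H4K20me3 islands of Setd8-LKO. A protein-coding start was within 1 kb of 22.0% of gained and 16.8% of WT peaks. The 46 Setd8-LKO peaks also in WT had medians of 6.5 CpG and 61.5% GC. H3K27ac overlapped 28.3% of these 46, and 34.8% had a protein-coding start within 1 kb. Higher CpG, GC and H3K27ac overlap than in WT were therefore not limited to gained peaks. An ATAC-seq peak overlapped 28.3% of the 46, and 8.70% lay in H4K20me3 islands of Setd8-LKO.

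Gained H3K27ac peaks also seldom overlapped ATAC-seq peaks. Of 234, a SMC3 peak overlapped 82.5%, a CTCF peak 52.1% and an ATAC-seq peak 3.85%. For the 249 WT H3K27ac peaks the shares were 6.43%, 4.02% and 45.4%. The SMC3 and CTCF lists of Setd8-LKO held more peaks in the islands, and the part of this in the overlaps was not tested. Setd8-LKO H3K27ac peaks also in WT were not examined in this way. A protein-coding start was within 1 kb of 46.6% of gained and 73.1% of WT H3K27ac peaks, and the 100-base windows had a median of 11 and 10 CpG and 70% GC in both. Their median fold enrichment was 9.73 against 16.4.

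Borders are the ends of the WT Lamin A/C islands, and WT H4K20me3 coverage chose the islands, so the coverage on either side follows in part from the rule and is given as a description. In the 369 islands of at least 600 kb, WT H4K20me3 covered 21.4% of the 20 kb just outside the border, 45.7% of the 20 kb just inside and 89.6% at 280 to 300 kb inward. The Setd8-LKO Lamin A/C list covered 23.4%, 62.6% and 94.7% of the same windows, and the Setd8-LKO H4K20me3 list 20.8%, 39.0% and 71.5%. WT CTCF peaks went from 0.822 per Mb just outside to 1.36 just inside and 0.203 at the innermost window. Setd8-LKO CTCF peaks went from 3.49 to 2.99 and 1.96. Windows from 200 kb inward scattered between 0 and 0.203 per Mb in WT and between 0.949 and 2.30 in Setd8-LKO.

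Peaks inside the islands lay deeper in Setd8-LKO. The median distance of a CTCF peak to the nearest border was 73.1 kb in WT and 245 kb in Setd8-LKO, and that of a SMC3 peak 64.1 and 230 kb. For H3K27ac it was 118 and 191 kb, and for ATAC-seq 90.8 and 98.4 kb. The outermost 20 kb at each end, which is 4.09% of island bases, held 27.7% of WT and 7.92% of Setd8-LKO CTCF peaks.

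**Figure D4:**
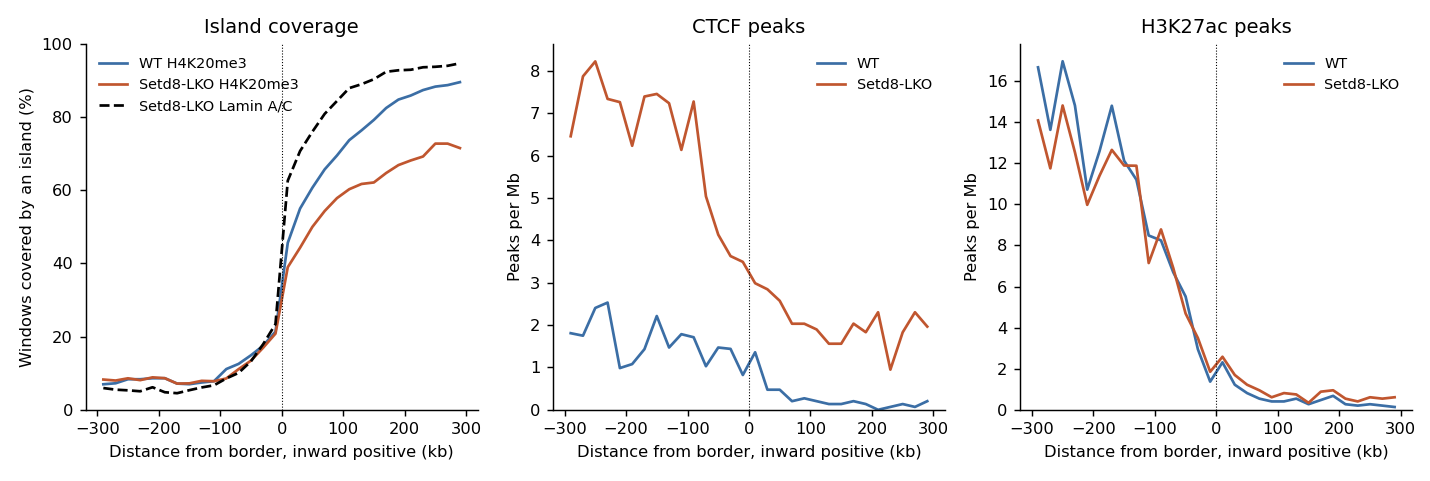
Profiles across the borders of the 369 islands of at least 600 kb, with distance from the border in kb on the x axes, inward positive. The y axes give the percent of 20 kb windows in islands (Lamin A/C dashed and only in Setd8-LKO) and the number of CTCF and H3K27ac peaks per Mb, in WT (blue) and Setd8-LKO (orange), pooled over borders with no error bar. From 200 kb inward, WT CTCF density varies between 0 and 0.203 per Mb and Setd8-LKO density between 0.949 and 2.30.

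Of the 2035 protein-coding starts in the islands, 178 (8.75%, 7.55 to 10.1) had an H3K27ac peak within 1 kb in WT and 280 (13.8%, 12.3 to 15.3) in Setd8-LKO, where the shares over all protein-coding starts were 51.2% and 55.2%. Both lists shared 174 of them. CTCF peaks within 1 kb went from 20 to 241 starts and SMC3 peaks from 24 to 330, while ATAC-seq peaks went from 122 to 108. These are 0.983% and 11.8% of the starts for CTCF, 1.18% and 16.2% for SMC3 and 6.0% and 5.31% for ATAC-seq. Starts outside WT Lamin A/C islands changed in the same direction, from 5.61% to 41.3%, from 15.4% to 59.0% and from 42.8% to 36.4%. Acetylated starts far inside an island were present in both conditions. Dsel, a dermatan sulfate epimerase gene, lay 3575 kb from the nearest border with H3K27ac and ATAC-seq peaks in both conditions, Nudt12 1573 kb, Guf1, a mitochondrial translation factor gene, 1517 kb, and Tusc1 1144 kb. Starts with H3K27ac in Setd8-LKO only included the neuronal splicing factor gene Nova1 (1619 kb from the border), Slit2, an axon guidance gene (1243 kb), and Gabra2 (884 kb).

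In liver RNA, genes of the islands were seldom listed as changed. The Setd8-LKO mice had received TCPOBOP and the untreated WT mice had not, so the differences below combine genotype and treatment. The RNA-seq tables are restricted to genes chosen by the authors (3900 in the comparison of Setd8-LKO with untreated WT), so a high share of calls follows from that choice and is not independent evidence. The table listed 103 of 2035 protein-coding genes in the islands (5.06%, 4.15 to 6.11), against 12.7% (10.0 to 15.7) in the other WT Lamin A/C islands and 14.6% (14.1 to 15.1) outside. Including noncoding genes and pseudogenes, 154 genes of the islands were listed and 145 passed the filter on low counts. In edgeR's quasi-likelihood test (adjusted p under 0.05 and at least a 2-fold difference), 94 of these were higher in Setd8-LKO and 35 lower, and 16 did not pass. Over all tested genes, 55.2% were higher and 37.5% lower. The groups did not overlap for 123 of the 129 called, where this held for 93.2% of all called genes. The direction was the same within each of the 2 sequencing runs named in the table for 129 of 129 and for 99.9% of all called genes, so neither count sets the islands apart, and the first run holds 1 Setd8-LKO library.

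The scaling changed this split. The median log2 fold change of all listed genes was 1.16 with the authors' factors and 0.36 with DESeq2's own size factors, and DESeq2 called 43 genes of the islands higher and 40 lower. Since total RNA per cell is not measured, which scaling is right was not tested. The 20 genes with the largest differences named next kept their calls under each of these scalings. In bulk liver, fewer cells of a type and less RNA per cell cannot be told apart. Hepatocyte markers summed to 1094104 to 1853777 reads in WT and 462590 to 641964 in Setd8-LKO over the 6 of 8 listed, with 5 lower. All 5 cholangiocyte markers were listed and summed to 422 to 686 and 1617 to 7426, with 4 higher. Of 6 stellate cell markers only Col1a1 and Col3a1 were listed. They summed to 430 to 1202 and 1817 to 6141, both higher. Of 5 endothelial cell markers 0 were listed. The part of cell composition in the gene results was not tested.

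Mitotic genes were among those that rose. Cenpe, a kinesin that carries chromosomes on the spindle, had 1, 4, 8, 3 and 10 normalised reads in the 5 untreated WT libraries and 190, 163, 216 and 87 in the 4 Setd8-LKO libraries. The groups did not overlap, and the log2 fold change was 4.94 (SE 0.47, adjusted p = 2.19e-05). Its island, chr3:133860001-135240000, kept 92.8% for Lamin A/C and 52.2% for H4K20me3, and its start lay 27.5 kb from the border with an H3K27ac peak in both conditions. Depdc1a, a gene of mitotic progression, had 0, 0, 2, 2 and 4 reads in WT and 64, 56, 56 and 50 in Setd8-LKO. It rose by 4.93 (SE 0.51, adjusted p = 3.80e-05). It lay 245 kb inside an island with one of the highest WT Lamin A/C scores per kb (chr3:158760001-159740000, 3.28), of which Setd8-LKO Lamin A/C covered 100% and H4K20me3 95.9%. A pseudogene of cyclin B1, Ccnb1-ps, rose by 5.77 (SE 0.47, adjusted p = 9.08e-06), from 0 to 4 reads in WT to 93 to 171. Reads of such a copy can come from its parent gene, so its level is uncertain.

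Mmp12, macrophage metalloelastase, had 2, 3, 2, 26 and 3 reads in WT and 196, 164, 126 and 204 in Setd8-LKO, with a log2 fold change of 4.54 (SE 0.63, adjusted p = 0.000262). The fourth WT library was higher than the rest but below every Setd8-LKO library. Of 6 Kupffer cell and macrophage markers only Marco was listed, at 73 to 272 reads in WT and 304 to 489 in Setd8-LKO. The part of macrophages in the Mmp12 difference was not tested. Tinag, a basement membrane protein gene, went from 1 to 6 reads to 16 to 62 (log2 fold change 3.92, SE 0.53), and Scn7a, a sodium channel gene of glia and nerves, from 1 to 9 to 32 to 110 (3.79, SE 0.54).

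Vmn2r3, a vomeronasal receptor gene, had 3 raw reads over the WT libraries and 442 over the Setd8-LKO libraries, a ratio of 133 with a counting interval of 45.2 to 647. It was 1 of 2 vomeronasal receptor genes of the islands in the table, the other being Vmn2r22, which was lower, and 0 of the 766 olfactory receptor genes in the islands were listed. Gm10800 had 2 reads against 141, a ratio of 63.6 (17.3 to 530). The noncoding genes Gm50410 and Gm7125 rose by 4.61 and 3.94. Of collagen genes in the islands, 2 of 4 were listed, Col3a1 and Col5a2, and both were higher.

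**Figure D5:**
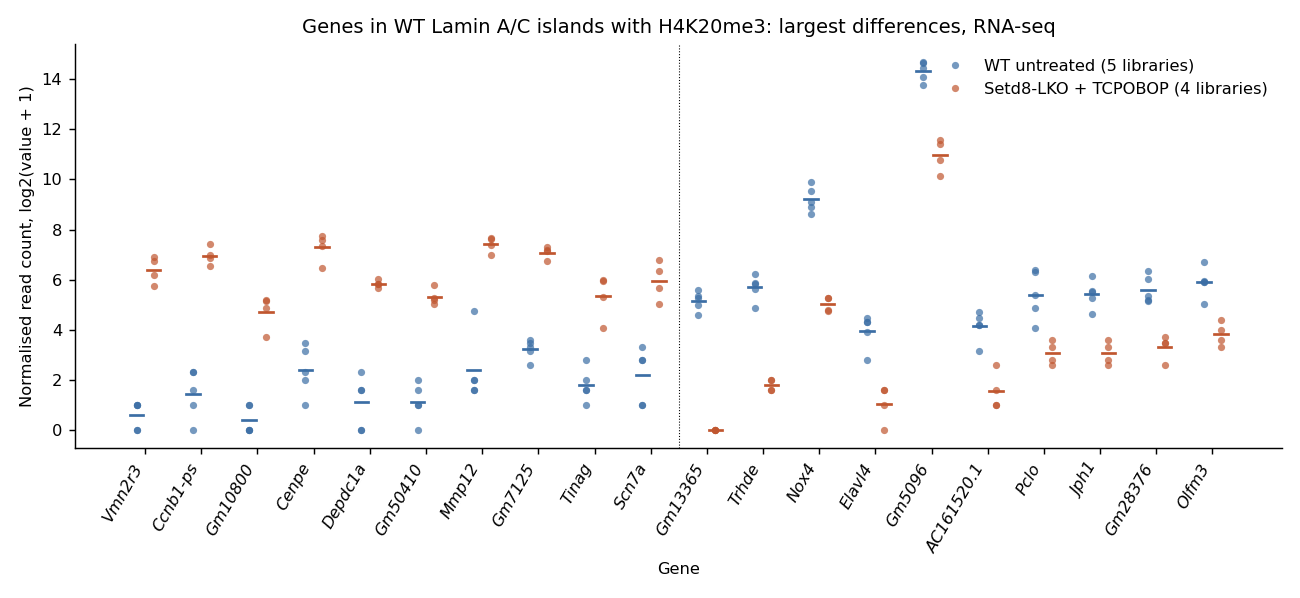
Normalised read counts as log2(value + 1) on the y axis for the 20 genes of the islands with the largest differences between untreated WT (5 libraries) and Setd8-LKO (4 libraries), 10 higher and 10 lower, named along the x axis. Each point is a library and short lines are means. The groups do not overlap for any of these genes, and Gm13365 is at 0 in all 4 Setd8-LKO libraries.

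Nox4, an NADPH oxidase that makes hydrogen peroxide, was among the 10 genes with the largest falls. Its normalised reads were 949, 745, 396, 479 and 552 in WT and 38, 26, 38 and 27 in Setd8-LKO. The groups lay far apart, and the log2 fold change was -4.26 (SE 0.31, adjusted p = 5.03e-06). The start of Nox4 lay 6.10 kb inside its island (chr7:87240001-88240000), which kept 92.0% for Lamin A/C and went from 66.0% to 68.0% for H4K20me3. H3K27ac was present at the start in both conditions, and CTCF and SMC3 peaks in Setd8-LKO only. Trhde, a peptidase that degrades thyrotropin-releasing hormone, had 74, 56, 58, 28 and 49 reads in WT and 3, 2, 3 and 2 in Setd8-LKO, with a log2 fold change of -4.32 (SE 0.38, adjusted p = 1.48e-05). It was the only protein-coding start of the 2120 kb island chr10:113000001-115120000.

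Elavl4, a neuronal RNA-binding protein gene, had 21, 14, 19, 19 and 6 reads in WT and 2, 0, 2 and 1 in Setd8-LKO (log2 fold change -3.84, SE 0.58, adjusted p = 0.000443). Its 140 kb island (chr4:110320001-110460000) was covered throughout by H4K20me3 in WT and not at all in Setd8-LKO, with 100% for Lamin A/C in Setd8-LKO. H3K27ac, CTCF and SMC3 peaks were at its start in Setd8-LKO only, while its reads were lower. Pclo, which encodes the presynaptic scaffold piccolo, had 41, 16, 82, 28 and 78 reads in WT and 11, 9, 5 and 6 in Setd8-LKO (-2.63, SE 0.51, adjusted p = 0.00268). Jph1, a junctophilin that ties the endoplasmic reticulum to the plasma membrane, fell by 2.56 on the log2 scale (SE 0.37, adjusted p = 0.000362). Its antisense gene Gm28376 fell by 2.43, and since the counting is not stated to use strand, reads of the pair cannot be told apart. Olfm3, an olfactomedin gene of neurons, fell by 2.21 (SE 0.38). Gm13365, a processed pseudogene, had 23 to 47 reads in WT and 0 in every Setd8-LKO library, at least 13.9-fold lower when 3 counts per library are taken as the floor.

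Promoters bear on these results where a gained CTCF peak overlapped them. Shown are promoters of named genes with such an overlap, those of Nox4, Elavl4 and Peg3 (a gene of the comparison below), each 250 bases before to 50 after the RefSeq start on GRCm38, with capitals for the CTCF motif.
Nox4 promoter, chr7:87246399-87246698, plus strand: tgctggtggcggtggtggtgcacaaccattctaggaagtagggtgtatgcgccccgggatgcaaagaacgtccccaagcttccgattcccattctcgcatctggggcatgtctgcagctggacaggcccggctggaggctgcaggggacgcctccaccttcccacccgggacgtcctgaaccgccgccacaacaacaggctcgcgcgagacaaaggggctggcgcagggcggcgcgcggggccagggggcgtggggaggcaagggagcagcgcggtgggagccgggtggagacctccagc
Elavl4 promoter, chr4:110351862-110352161, minus strand: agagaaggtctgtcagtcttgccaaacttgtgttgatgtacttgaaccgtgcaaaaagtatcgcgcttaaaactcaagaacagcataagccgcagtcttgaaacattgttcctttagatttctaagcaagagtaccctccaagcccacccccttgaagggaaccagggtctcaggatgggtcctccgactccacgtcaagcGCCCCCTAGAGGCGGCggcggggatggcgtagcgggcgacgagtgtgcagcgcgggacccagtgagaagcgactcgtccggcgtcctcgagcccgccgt
Peg3 promoter, chr7:6730370-6730669, minus strand: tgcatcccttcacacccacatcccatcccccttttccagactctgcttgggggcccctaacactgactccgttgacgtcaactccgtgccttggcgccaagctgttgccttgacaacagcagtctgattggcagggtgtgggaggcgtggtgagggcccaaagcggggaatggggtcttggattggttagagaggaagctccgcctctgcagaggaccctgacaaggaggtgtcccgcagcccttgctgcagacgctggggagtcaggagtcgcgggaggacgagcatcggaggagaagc

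The Elavl4 promoter held 2 overlapping matches to CCNNNAGNNGGC, 1 on each strand, and those of Nox4 and Peg3 held none. Over all 27025 RefSeq promoters of that length, 8.56% held at least 1. GC content was 68.3% for Nox4, 57.0% for Elavl4 and 61.3% for Peg3, with 24, 23 and 13 CpG.

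Called genes lay in islands of either outcome. Of the 94 higher genes, 87 were in islands that kept Lamin A/C and 71 in islands that kept H4K20me3, and of the 35 lower genes 31 and 26. Over all 2035 protein-coding genes of the islands, listed in the tables or not, these were 1904 and 1767. H3K27ac was within 1 kb of the start of 24 of the higher genes in WT and 31 in Setd8-LKO, and of 7 and 10 of the lower. CTCF peaks were there at 2 and 24 of the higher genes and at 0 and 10 of the lower, so genes of either direction had them. Over the 2035 protein-coding starts the shares in WT and Setd8-LKO were 8.75% and 13.8% for H3K27ac and 0.983% and 11.8% for CTCF. These sets differ in kind. The higher and lower genes include 16 and 8 pseudogenes and 10 and 5 other genes that do not code for protein. Of the 2035, 766 were olfactory receptor genes, none of them listed.

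TCPOBOP alone, in WT livers, changed few genes of the islands. Its table listed 719 genes, 11 of them in the islands, 5 of which were protein-coding (0.246% of 2035, 0.0798 to 0.572, against 2.84% outside WT Lamin A/C islands). All 11 were tested with edgeR: 9 were higher and 2 lower than in untreated WT, where 58.2% of all tested genes were higher and 20.6% lower. Both RNA comparisons use the same untreated WT libraries. The calls of 7 of the 9 higher genes rested on the scaling, since the median of all listed genes went from 1.34 with the authors' factors to 0.36 with TMM factors and 0.21 with DESeq2, and these called only Gm33525 and Gm12649 higher.

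Gm33525, a noncoding gene in the Pcdh9 island of chromosome 14, had 1, 0, 0, 0 and 0 normalised reads in untreated WT and 31, 37, 26, 22 and 30 after TCPOBOP. Its raw reads, 122 against 1, gave a ratio of 136 (23.9 to 5412). Gm12649, also noncoding, had 4, 1, 9, 2 and 2 and then 30, 28, 28, 29 and 46 reads (log2 fold change 3.01, SE 0.43, adjusted p = 0.00161). The imprinted zinc finger gene Peg3 had 116, 84, 274, 200 and 294 reads in untreated WT and 552, 761, 474, 588 and 779 after TCPOBOP. The groups did not overlap, with a log2 fold change of 1.71 (SE 0.34, adjusted p = 0.0147) that was 0.71 with TMM factors and 0.53 with DESeq2, past the threshold in neither. Its island (chr7:6460001-6740000) was listed for H4K20me3 and not for Lamin A/C in Setd8-LKO.

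Ncam2, a neural cell adhesion gene, had 106, 88, 111, 37 and 131 reads and then 268, 223, 248, 475 and 434 (1.80, SE 0.35, adjusted p = 0.0128). The pseudogenes Gm8834, Gm18252, Gm9797 and Gm13502 had log2 fold changes of 1.57, 1.57, 1.54 and 1.39. Gm8834 lies within Gm18252 and their reads agree within 4 per library, so they were not counted apart. Mme, which encodes the peptidase neprilysin, had 464, 494, 305, 207 and 252 reads in untreated WT and 164, 112, 173, 135 and 111 after TCPOBOP (-1.31, SE 0.28, adjusted p = 0.0234). Gm5096 had 22228, 26209, 13977, 25516 and 17392 and then 3200, 12885, 4535, 3910 and 4683 (-1.85, SE 0.38, adjusted p = 0.0179). In Setd8-LKO its reads were 2756, 1770, 1116 and 3055 (log2 fold change -3.28, SE 0.35, adjusted p = 4.30e-05). In the same comparison of Setd8-LKO with untreated WT, Peg3 (log2 fold change 2.65) and Mme (-2.06) kept the direction seen after TCPOBOP. Gm8834 and Gm18252 were also higher in both. Gm13502 (-1.09, called lower) and Ncam2 (-1.35, not called) went the opposite way. Gm33525 and Gm12649 were not tested there. The lower calls after TCPOBOP were sensitive to single libraries, with 0 to 2 of them left when a library was omitted in turn.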

How the data were processed

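The authors trimmed the ChIP-seq, CUT&Tag and ATAC-seq reads with Trimmomatic 0.39, aligned them to mm10 with HISAT2, removed duplicates and blacklisted regions, and reduced ChIP-seq and CUT&Tag reads to the smallest sample. They called peaks with MACS2 2.2.7.1 (−log10 p of at least 13) and islands with SICER2, in windows and gaps of 20 kb by the list names. The deposited peak lists give a fold enrichment (ratio over background) and a −log10 p, and the deposited island lists a SICER2 score. How replicates were pooled is not given in the sources used here. The RNA-seq tables deposited by the authors hold raw counts per gene from metaseqR and the same counts normalised by 1 factor per library. Another 114 columns, transformed versions of these counts, and the authors' p-values, FDR and fold changes were not used, except to derive that 18512 genes had been tested.

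Coverage was computed per island from the lists, with genes from GENCODE M21 and a peak placed by its middle. A gene belonged to an island by its start. The raw counts went into the quasi-likelihood test of edgeR 4.0.16 under R 4.3.3 (filterByExpr with a minimum count of 10, the authors' factors), adjusted by Benjamini-Hochberg over 18512 genes, with DESeq2 1.42.0 as an alternative. The CTCF motif was built by expectation maximisation from 100-base windows at WT CTCF summits, with a limit of 1 bit per position chosen after limits near it had been seen. The test was checked on simulated data. Intervals used scipy 1.17.1, and figures matplotlib 3.10.9. The tables hold selected genes, so their column sums (1389901 to 12780869 reads) are not the depth. Replicate libraries differed from each other beyond sampling noise. The study's methods call the RNA-seq libraries biological replicates, and the labels do not name the mouse of each. The p-values measure the spread between these libraries.

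The islands, gene lists and rules were chosen with earlier results of these data known. Regions named are the 5 longest, the 5 with the highest WT Lamin A/C score per kb or most WT H3K27ac peaks, those with the lowest coverage in Setd8-LKO, and those beside the 50% limit. Genes named are the 10 largest rises and falls per comparison among called genes whose groups do not overlap, and families by symbol. Acetylated starts deep in islands, the islands with most genes, those with most CTCF peaks and the gained CTCF windows were chosen after their values were seen. Groups with 0 reads were set against 3 counts. Replicate numbers did not pair the libraries: correlations of same-numbered libraries ran from -0.15 to 0.07 for Setd8-LKO and from -0.43 to 0.11 for WT with TCPOBOP.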

Additional observations from a re-analysis of the deposited data

Results flagged for a closer look

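Within groups of 5 libraries, 6 values lay far from the rest of their group by Dixon's test at the 95% level. Chance alone marks about 5% of groups. Mmp12 had 26 normalised reads in untreated WT replicate 4 and 2 to 3 in the other WT libraries. Gm33525 had 1 read in untreated WT replicate 1 and 0 in the others. After TCPOBOP in WT, Gm12649 had 46 reads in replicate 5 and 28 to 30 in the others, and Gm5096 had 12885 in replicate 2 and 3200 to 4683 in the others. In replicate 4 of that group, Gm8834 had 6020 reads against 3408 to 4118, and Gm18252, which shares its reads, had 6020 against 3408 to 4119.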

How the results depend on the processing

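Of 155 values of comparisons recomputed under alternatives, 113 stayed within their error or within 1.5 times the count, and 42 moved. The share of islands kept for Lamin A/C was 89.2% at 1 bp of overlap, 74.7% at 80% coverage, 78.5% with reciprocal overlap, 77.9% without the 25% of Setd8-LKO islands with the lowest scores and 90.4% for islands of at least 200 kb. For H4K20me3 it was 89.2% at 1 bp, 44.8% at 80%, 65.1% for islands redefined at 25% WT H4K20me3 coverage and 85.0% at 75%.

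With islands shortened by 20 kb at each end, WT densities per Mb were 0.379 (ATAC-seq), 0.298 (H3K27ac), 0.112 (CTCF) and 0.125 (SMC3), and Setd8-LKO densities 0.382 (ATAC-seq) and 0.588 (H3K27ac). With islands redefined at 25%, ATAC-seq was 0.558 and 0.545 and H3K27ac 0.417 and 0.725 in WT and Setd8-LKO. At 75%, ATAC-seq was 0.359 and 0.362, H3K27ac 0.282 and 0.530, CTCF in WT 0.107, SMC3 0.120 and 0.998. With −log10 p of at least 20, Setd8-LKO ATAC-seq was 0.424 and CTCF 1.54 per Mb. Whole genes inside gave 2.76 protein-coding genes per Mb.

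In RNA, DESeq2 called 43 genes of the islands higher in Setd8-LKO. Whole genes inside gave 23 lower and islands at 75% gave 22. After TCPOBOP in WT, TMM and DESeq2 each called 2 higher, islands at 75% gave 1 lower, and 4931428L18Rik turned from 1.14 to -0.030 on the log2 scale with DESeq2. With the replicate number as a replicate block, 80 genes were higher and 31 lower in Setd8-LKO, and 6 higher and 1 lower after TCPOBOP. Leaving out each library in turn gave 86 to 99 higher and 32 to 37 lower in Setd8-LKO. After TCPOBOP it gave 9 higher throughout and 0 to 2 lower with edgeR. The count was 0 without untreated WT replicate 2 or TCPOBOP replicate 4 or 5, where Gm5096 and Mme had adjusted p of 0.0502 to 0.0807, and 2 with DESeq2 on all libraries. Of 530 values of named genes, 503 kept their direction and call. The cause of these shifts was not tested. Chromatin lists have no replicate values, so their spread between mice is unknown.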
